A study of Saccharomyces cerevisiae with 2 samples.

Results

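The DBP genes of budding yeast (Saccharomyces cerevisiae) encode DEAD-box proteins, and 10 of them were examined out of 5645 nuclear genes with probes on the array: DBP1, DBP2, DBP3, HCA4 (also called DBP4), DBP5, DBP6, DBP7, DBP8, DBP9 and DBP10. Members were found by gene name among the array's annotated probes, counting the regions that a member shares with a divergent neighbour. The family was chosen by its upstream log2 ratios on these same arrays, for the contrast of HCA4 with DBP2 and DBP10, so the members' upstream values are given as a description, without a test. The genes had 85 probes, 14 of them upstream and 71 coding. All 14 upstream probes and 69 of the coding probes were kept, and a non-uniform spot removed 1 coding probe each of DBP9 and DBP10. DBP5 had no upstream probe, which left 9 members with one. DBP1, DBP6, DBP7 and DBP10 share their upstream region, and so 6 of the 14 upstream probes, with a gene transcribed the other way.

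DEAD-box proteins bind RNA and use ATP to unwind short helices or to displace proteins from RNA. Most of the DBP proteins act in the nucleolus on the assembly of ribosomal subunits, and the others act in messenger RNA export, RNA quality control and translation. Chromatin over a budding yeast gene is commonly described as an array of nucleosomes over the coding sequence and a nucleosome-poor stretch just upstream of it.

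The 2 arrays, replicates 1 and 2, form 1 group of cells that alpha factor, a mating pheromone, had arrested in G1; the strain is not given in the labels. On each array, DNA from chromatin cut with micrococcal nuclease, which digests the linkers between nucleosomes, carried Cy5, and genomic DNA from sonicated chromatin carried Cy3. Both arrays had the same dye orientation, lay on 1 slide and were read in 1 scan, so their mean still holds any dye bias, and whether separate cultures were used is not stated in the labels. The median probe had a raw Cy5 brightness of 32997 on replicate 1 and 33242 on replicate 2. In Cy3 the medians were 17885 and 16928, and no median local background was above 80.5. A level is the log2 of Cy5 divided by Cy3 after each array's median was set to 0, and an error is the SD over the 2 arrays. Over all genes the median level was 0.83 upstream (5190 genes) and -0.082 over coding sequence (5462 genes), so values are given in the channels as labelled and are not read as nucleosome occupancy.

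HCA4, a helicase needed for release of the U14 small nucleolar RNA during maturation of 18S ribosomal RNA, had the highest upstream level of the family. Its only upstream probe (chromosome 10, 383300 to 383359, in the array's own coordinates, with the genome build not given) had a log2 ratio of 4.36 on replicate 1 and 4.43 on replicate 2, a mean of 4.39 ± 0.044 (SD, n = 2). The probe was centred 158.5 bp upstream of the start boundary, which was placed midway between the last upstream and the first coding probe. The nearest probe on the far side, in the coding sequence of KAR2, an HSP70 chaperone of the endoplasmic reticulum, was at 1.06, and the first coding probe of HCA4 was at 0.94. HCA4 ranked 7 from the top of the 5190 genes with an upstream level, some of which are means of several probes. Among the 9173 kept single nuclear upstream probes its probe ranked 51 from the top. Neither rank counts probes that were removed because their Cy3 was not well above background.

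DBP2, a relative of human p68 with roles in RNA quality control, lay at the other end of the range. Its nearer upstream probe (chromosome 14, 413590 to 413649) was at -2.08 and -2.04, a mean of -2.06 ± 0.024. Its farther probe (413218 to 413277) was at -1.32 and -1.33, a mean of -1.33 ± 0.0083. Both lay below the nearest coding probe on either side. That of RPC19, which encodes a subunit shared by RNA polymerases I and III, was at -0.78, and the first coding probe of DBP2 was at -0.53. A later DBP2 coding probe, at -1.57, was below the farther upstream probe. The gene mean of -1.69 ± 0.0077 ranked 17 from the lowest of 5190. Among 9173 single upstream probes the nearer ranked 24 and the farther 229 from the lowest.

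DBP10, which acts in assembly of the large ribosomal subunit, had a single upstream probe (chromosome 4, 394163 to 394222) in the region it shares with YDL033C, known as SLM3, a gene for modification of mitochondrial transfer RNA. That probe was at -2.04 and -2.09, a mean of -2.06 ± 0.030, and DBP10 ranked 6 from the lowest of 5190 genes. Among 9173 single upstream probes it ranked 23 from the lowest. The flanking YDL033C coding probe was at -0.81 and the first DBP10 coding probe at 0.81. Levels of the nearest upstream probes of DBP2 and DBP10 overlapped between arrays. The gap from HCA4 to DBP10 was 6.41 on replicate 1 and 6.51 on replicate 2, a mean of 6.46 ± 0.075, and the gap from HCA4 to DBP2 in gene means was 6.06 and 6.12, a mean of 6.09 ± 0.037.

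**Figure D1:**
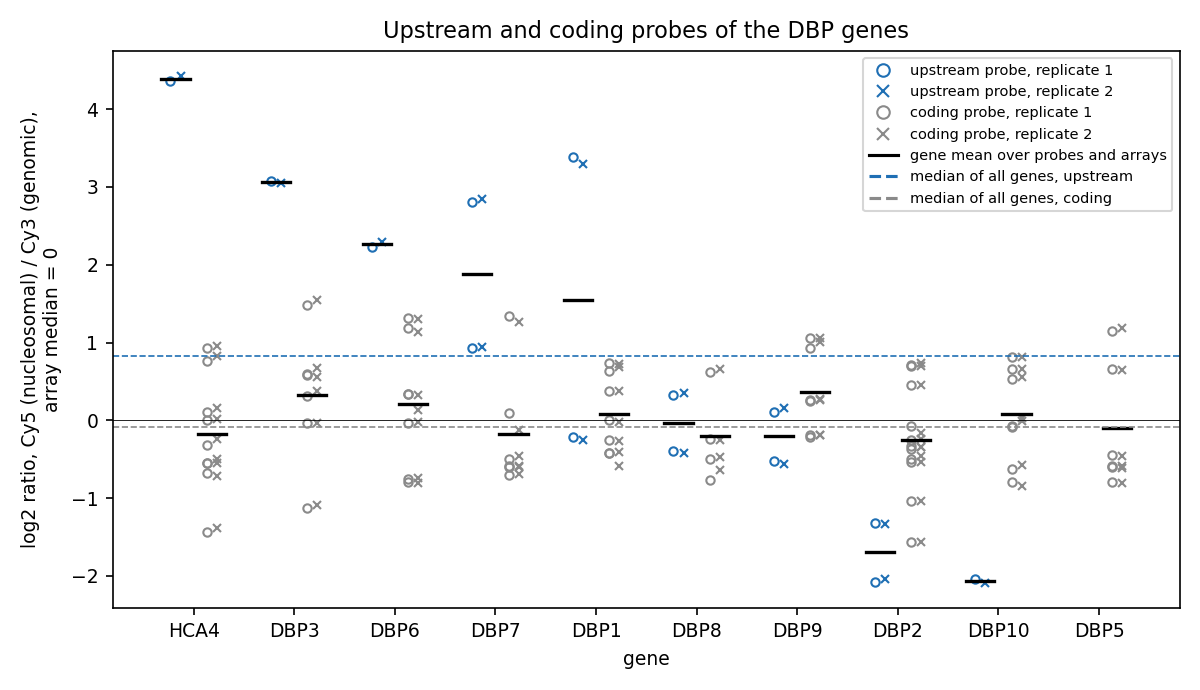
Log2 ratio of Cy5 (nucleosomal) over Cy3 (genomic), array median at 0, for each kept upstream probe (blue) and coding probe (grey) of the 10 DBP genes on replicate 1 (circles) and replicate 2 (crosses), with black bars for gene means and dashed lines for the medians of all genes. Upstream gene means run from 4.39 at HCA4 to -2.06 at DBP10, a spread that the family was picked for. Coding gene means, each over more probes, lie between -0.25 and 0.36.

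The remaining members that act in large-subunit assembly had upstream gene means from 3.06 at DBP3 to -0.20 at DBP9. DBP3, which acts early in ribosomal RNA processing, had 1 upstream probe (chromosome 7, 362018 to 362077) at 3.08 and 3.05, a mean of 3.06 ± 0.021. The neighbouring coding probe of HNM1, a choline transporter gene, was at 0.05 and the first coding probes of DBP3 were at 0.57 and 1.52. DBP6 shares its upstream region with RSM19, which encodes a mitochondrial ribosomal protein, and its probe (chromosome 14, 695353 to 695410) was at 2.23 and 2.29, a mean of 2.26 ± 0.041. The RSM19 coding probe on its other side was at -0.97, while the first DBP6 coding probe was at 1.31. Beyond RSM19, a probe that the array assigns to another gene's promoter, at -620.5 bp from the DBP6 start boundary, was higher still at 3.61 and 3.65.

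DBP7 and DBP9, of the same assembly pathway, had a pair of upstream probes each. In the region DBP7 shares with RPC37, an RNA polymerase III subunit gene, the probe nearer to DBP7 (chromosome 11, 486988 to 487047) was at 0.93 and 0.95, and the one farther away (487306 to 487365) at 2.80 and 2.84. The centres were 318 bp apart and the nearer probe was lower by 1.88 ± 0.019 on the log2 scale. At DBP9 the nearer probe (chromosome 12, 696900 to 696959) was at 0.11 and 0.16 and the farther (697125 to 697184) at -0.52 and -0.57, so its mean of -0.20 ± 0.0053 covers values on either side of 0.

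DBP1, a paralogue of the translation initiation helicase DED1, had the widest difference within one upstream region. The probe nearer to DBP1 (chromosome 16, 326370 to 326428) was at 3.38 and 3.29, a mean of 3.34 ± 0.066. The other (326531 to 326590), toward the divergent gene MRP51 for a mitochondrial ribosomal protein, was at -0.21 and -0.25. Their centres were 161.5 bp apart and differed by 3.57 ± 0.039, so the gene mean of 1.55 ± 0.046 describes neither probe. DBP8, which like HCA4 acts on 18S ribosomal RNA, was near the array median: its nearer probe (chromosome 8, 442145 to 442204) was at -0.40 and -0.42 and its farther one (441856 to 441915) at 0.33 and 0.35.

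By gene mean the upstream order was HCA4, DBP3, DBP6, DBP7, DBP1, DBP8, DBP9, DBP2 and DBP10, with no overlap between the arrays' values for neighbours in that order. The widest steps were 1.59 ± 0.046 from DBP1 to DBP8 and 1.49 ± 0.0024 from DBP9 to DBP2. By the nearest upstream probe alone DBP1 moved to the second place and DBP9 above DBP8. Of the 9 members, 5 were above 0 (55.6%), against 78.4% of 5190 genes. Over all genes 96.7% of upstream means passed the limma test against 0, in either direction. The quartiles of the family, -0.20 and 2.26, lay outside those of all genes, 0.13 and 1.62. Because the family was picked for its spread upstream, nothing is read from these shares.

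The contrast between HCA4 and DBP10 lay in Cy3, the channel labelled genomic DNA. Raw Cy5 brightness of the upstream probe was 27169 and 25821 for HCA4 and 26443 and 26223 for DBP10, values that overlap between the arrays. Raw Cy3 brightness was 923 and 849 for HCA4 and 59789 and 57270 for DBP10. In processed log2 brightness the difference of HCA4 minus DBP10 was 0.022 ± 0.073 in Cy5 and -6.44 ± 0.15 in Cy3. Among kept nuclear probes the Cy3 brightness of HCA4 stood at the 0.264 percentile and that of DBP10 at the 98.8 percentile, whereas their Cy5 percentiles were 34.0 and 33.6. The cause of the Cy3 difference was not tested, nor was whether the channels hold the DNA that their labels name.

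DBP2 differed from HCA4 in both channels, though mostly in Cy3. Its nearer upstream probe had raw Cy5 of 14686 and 15528 and raw Cy3 of 33823 and 32353. HCA4 minus this probe was 0.72 ± 0.12 in log2 Cy5 and -5.73 ± 0.14 in log2 Cy3. DBP3 and HCA4, the members with the highest gene means, differed by -0.21 ± 0.046 in Cy5 and -1.55 ± 0.11 in Cy3, taken as HCA4 minus DBP3. Bright Cy5 was seen in other members: the farther DBP7 probe reached 57888 and 54565, and the nearer DBP1 probe 51641 and 46480.

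Across the 14 upstream probes of the family, log2 raw brightness had an SD of 0.63 in Cy5 and 1.77 in Cy3. Over all 9173 nuclear upstream probes these were 0.94 and 1.41. The log2 ratio of the 14 probes correlated with Cy3 brightness at Pearson's r = -0.961 (Spearman's rho = -0.956) and with Cy5 at r = 0.530 (rho = 0.495), against -0.775 and 0.254 over the 9173. These SDs and coefficients are descriptions, and nothing is read from their distance to the background, as the family was picked for its upstream spread. In addition, the ratio contains both channels, the probes share arrays, and 6 of the 14 are also a neighbour's.

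**Figure D2:**
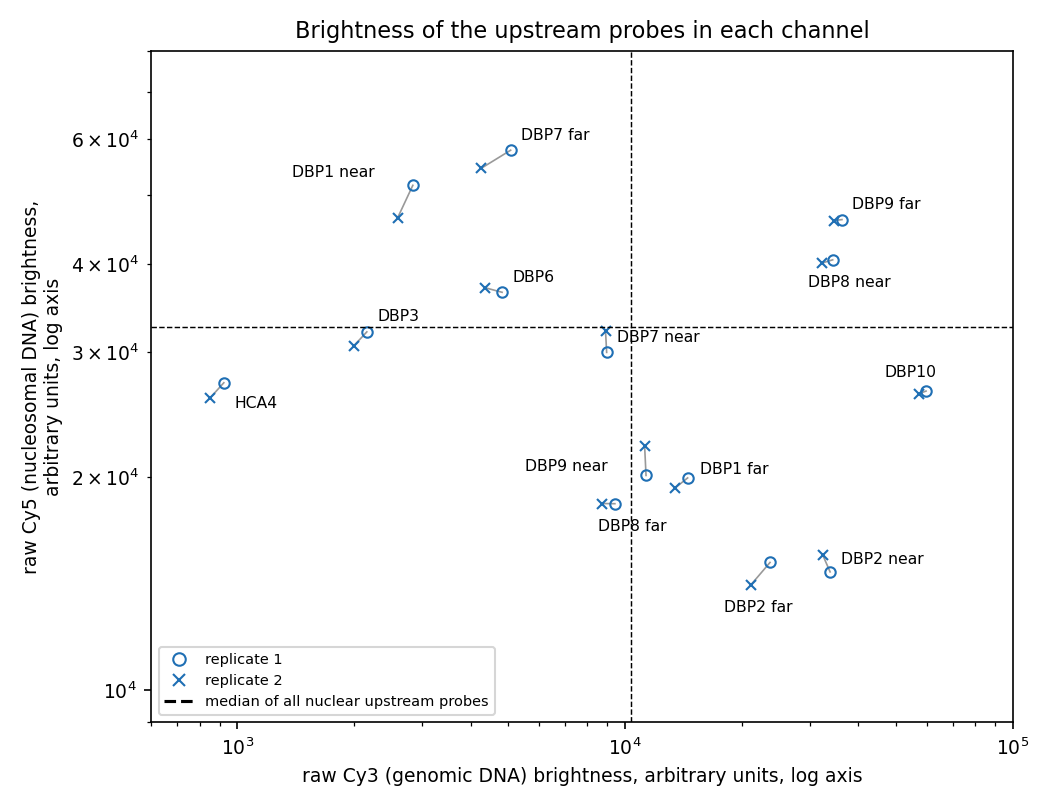
Raw Cy3 (genomic DNA) brightness against raw Cy5 (nucleosomal DNA) brightness, both on log axes in arbitrary units, of the 14 upstream probes on replicate 1 (circles) and replicate 2 (crosses), with dashed lines at the medians of all nuclear upstream probes (10338 in Cy3, 32553 in Cy5). HCA4 and DBP10 sit at about the same height, in Cy5, and at opposite ends in Cy3.

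Coding gene means lay closer together than upstream gene means. The family was picked for its upstream spread, however, and its coding means average more probes. Over all genes the quartiles were also closer over coding sequence (-0.33 and 0.19) than upstream (0.13 and 1.62). Gene means over coding probes were tested against 0 with limma across 5462 genes, and 5 members were above 0 and 5 below at a Benjamini-Hochberg adjusted p under 0.05. In the same test 93.8% of all genes passed, 38.2% above and 55.6% below, so passing does not set the family apart. These p-values measure only the spread between the 2 arrays, which may be technical.

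DBP9 and DBP3 had the highest coding means and stayed above 0 and past the threshold under each of the 6 processing settings tested. DBP9 was at 0.35 and 0.37 on the arrays (0.36 ± 0.014, limma adjusted p = 1.32e-07), with 0.22 after loess to 0.45 after normexp background correction. DBP3 was at 0.30 and 0.34 (0.32 ± 0.025), with 0.19 without centring to 0.43 after normexp, and it was above DBP9 after loess and with non-uniform spots kept. DBP6 was at 0.23 and 0.19 (0.21 ± 0.024), but 0.018 after loess (limma adjusted p = 0.410) and 0.082 without centring.

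DBP1 at 0.081 ± 0.015 and DBP10 at 0.076 ± 0.022 overlapped between arrays, and both turned negative without centring, DBP10 also after loess. DBP1 was 0.19 after normexp and 0.025 after loess, without passing in either (limma adjusted p = 0.107 and 0.143). It was 0.14 without its last coding probe, whose Cy5 was saturated on both arrays. DBP10 was 0.20 after normexp (limma adjusted p = 0.0796) and 0.16 with its non-uniform spot kept.

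Which member was lowest depended on the setting. DBP2 was lowest here, at -0.25 on each array (-0.25 ± 0.0011, limma adjusted p = 5.57e-07), and was -0.51 after loess but 0.15 after normexp (limma adjusted p = 0.208). DBP8 was at -0.22 and -0.18 (-0.20 ± 0.028), turned to 0.074 after loess, and was the lowest member after normexp at -0.50. DBP7 was at -0.16 and -0.20 (-0.18 ± 0.030), and without its first coding probe, saturated in Cy5 on 1 array, it was the lowest member at -0.48.

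HCA4 was at -0.19 and -0.16 (-0.17 ± 0.024). DBP5, the helicase that remodels messenger RNA at the nuclear pore during export, was at -0.10 on each array. Without centring these were -0.30 and -0.23. After normexp HCA4 was -0.17, DBP5 -0.17 and DBP7 -0.13, levels as low or nearly so, but none of these passed (limma adjusted p = 0.151, 0.153 and 0.271). The coding values of HCA4 and DBP7 overlapped between arrays, as did those of DBP7 and DBP8.

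The upstream level exceeded the coding level in 6 of the 9 members, against 79.4% of 5008 genes. The difference was 4.57 ± 0.020 for HCA4, which ranked 9 from the top, and 2.74 ± 0.047 for DBP3. It was 2.06 ± 0.050 for DBP7 (2.36 without the saturated coding probe), 2.05 ± 0.065 for DBP6 and 1.47 ± 0.031 for DBP1. DBP8 at 0.16 ± 0.028 was near 0, with 0.29 after normexp and -0.16 after loess. The difference was negative for DBP9 (-0.56 ± 0.0092), DBP2 (-1.44 ± 0.0088) and DBP10 (-2.14 ± 0.052, 18 from the lowest). As the upstream level enters each difference, these too are descriptions.

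Within the coding sequences single probes varied more than the gene means did. Of the 69 kept coding probes, 28 were above 0 (40.6%) and 34 below (49.3%) by limma across all probes, against 40.4% and 52.9% (93.3% in all) of 30056 nuclear coding probes, shares close to the background. The other 7 did not pass and lay between -0.046 and 0.010. Coding probes above 1 numbered 6 (8.70%) and those below -1 numbered 4 (5.80%), against 7.09% and 7.97% of all nuclear coding probes. The SD over the kept probes of a gene ran from 0.51 in DBP1 to 0.87 in DBP3, while the median SD of a member probe over the arrays was 0.021.

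HCA4 was high at the start of its coding sequence and lower after it: from 5′ to 3′ its probes had means of 0.94, 0.80, -0.69, -1.41, 0.010, 0.14, -0.52, -0.28 and -0.55. DBP6 had a similar early part, with 1.31, 1.16, 0.24, -0.025, -0.75, -0.80 and 0.33. In DBP7 the first coding probe was at 1.30, with Cy5 saturated on 1 array, so that this value is a lower bound, and the next 4 lay between -0.70 and -0.48. DBP10 started at 0.81 and 0.54. No probe lay between its low upstream probe and its first coding probe. Their centres, at -226 and 226 bp, are equally far from the start boundary because it was set midway between them.

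DBP2, a gene with a long intron, had no high start: its first 3 coding probes were at -0.53, -0.30 and -0.29. Coding probes are those the array places inside a gene, and intron probes were not separated. The DBP2 coding mean and probe counts may therefore include intron sequence. The lowest DBP2 probe (chromosome 14, 415205 to 415264) was at -1.57, between neighbours at 0.45 and -0.36, and whether it lies in the intron was not checked. The widest step between adjacent coding probes was in DBP3, from 1.52 at the probe from 361581 to 361640 on chromosome 7 to -1.10 at the next, a change of 2.62. DBP5 opened at -0.80 and was at 1.16 at its second probe, a step of 1.96. DBP9 was at 0.26, 0.97 and 1.05 over its first 3 probes.

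The first coding probe was above 0 in 7 of the 9 members with an upstream probe (77.8%), against 48.1% of 5005 genes; this comparison was chosen after the values were seen. Of these 9, only DBP2 and DBP8 were below 0 there. DBP5, left out for want of an upstream probe, started at -0.80. Upstream mean and first coding probe correlated at r = 0.543 (rho = 0.483) over the 9 genes and at r = 0.0439 over 5005 genes. This again is a description of probes on the same arrays, in a family picked for its upstream values.

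**Figure D3:**
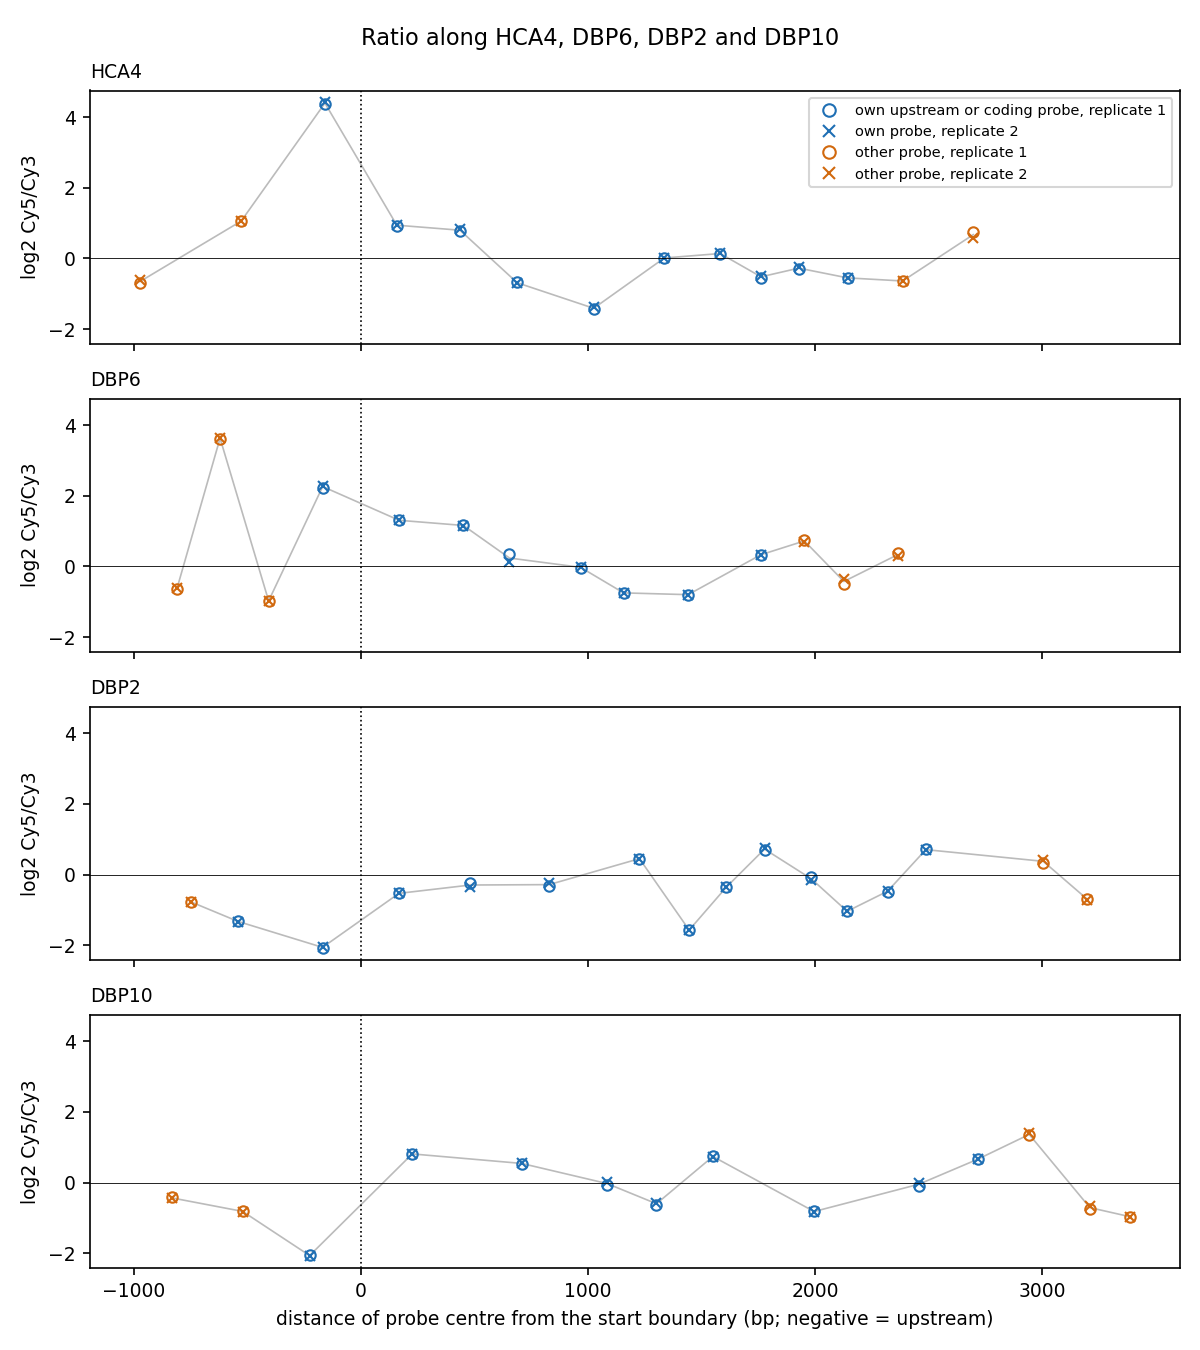
Log2 ratio of Cy5 over Cy3 along HCA4, DBP6, DBP2 and DBP10 against the distance of each probe centre from the start boundary in bp (negative is upstream), with the gene's own upstream and coding probes in blue, other probes in orange, replicate 1 as circles and replicate 2 as crosses. The nearest upstream probe is at 4.39 in HCA4 and 2.26 in DBP6, and at -2.06 in DBP2 and DBP10; the highest point of the DBP6 panel, at 3.61 and 3.65, belongs to another gene's promoter, and the DBP10 panel includes its probe with a non-uniform spot.

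Other yeast DEAD-box genes were set beside the family from a list of 16 (DED1, DHH1, DRS1, FAL1, HAS1, MAK5, MRH4, MSS116, PRP5, PRP28, ROK1, RRP3, SPB4, SUB2, TIF1 and TIF2). Of the 11 with an upstream level, 8 were above 0 and 3 below by limma, against 76.9% and 19.9% of 5190 genes. Their median was 1.41, beside 1.55 for the DBP genes. PRP28, a splicing helicase, was highest at 3.56 and 3.54 (3.55 ± 0.014, limma adjusted p = 1.12e-07), below HCA4. DRS1, of large-subunit assembly, followed at 2.19 ± 0.011. MAK5 (-0.96 ± 0.035), of the same pathway, and MRH4 (-0.95 ± 0.037), a mitochondrial helicase, were lowest, above the gene means of DBP2 and DBP10. After normexp MRH4 was -0.11 (limma adjusted p = 0.463), and MAK5, at -1.50, was below DBP2 at -1.29. After loess MAK5 was -0.46 and MRH4 -1.34. Over coding sequence 5 of 15 were above 0 and 10 below, against 38.2% and 55.6% of 5462 genes. TIF2 is among them and TIF1, its near-identical copy, is not, which leaves the TIF2 value uncertain.

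The genes nearest to HCA4, DBP2 and DBP10 were sought by Euclidean distance in the plane of upstream and coding means. The candidates were 2383 or 2384 genes with upstream probes of their own. Genes with a shared upstream region, as DBP10 itself has, were not among them. For HCA4 they were HMT1 (distance 0.207), NAM7 (0.225) and VHR2 (0.259), with upstream levels of 4.47, 4.24 and 4.22. For DBP2 they were YPR1 (0.0208), NOP4 (0.0775) and YOR097C (0.0815), at -1.68, -1.70 and -1.76 upstream. For DBP10 they were TEP1 (0.0876), SGO1 (0.202) and DDC1 (0.223), at -1.98, -1.88 and -2.27.

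HCA4 stayed the highest and DBP10 the lowest upstream under each of the 6 processing settings compared, but the size of the contrast did not hold. With normexp background correction HCA4 was 2.89 in place of 4.39, and the gaps shrank to 5.16 from HCA4 to DBP10 and 4.18 from HCA4 to DBP2. The HCA4 probe was the dimmest of the 14 in Cy3, and whether this bears on the smaller gaps was not tested. With upstream probes limited to 500 bp, DBP2 was -2.06, level with DBP10.

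**Figure D4:**
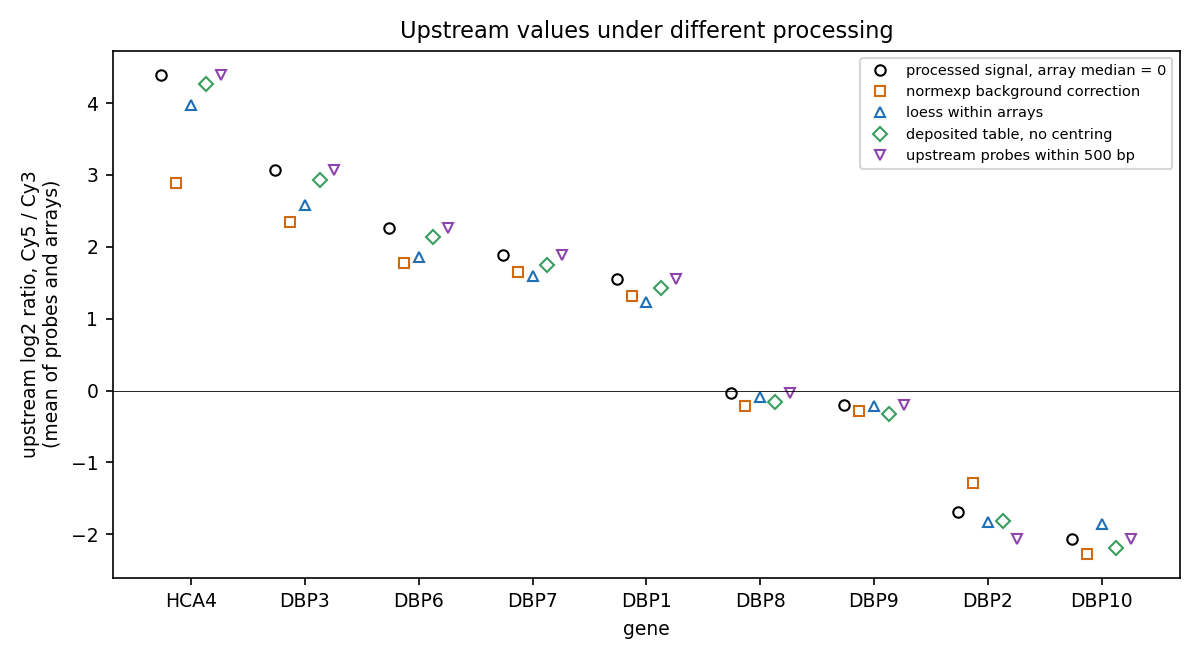
Upstream log2 ratio of Cy5 over Cy3 (mean of probes and arrays) of 9 DBP genes under 5 ways of processing, each with its own symbol. HCA4 ranges from 2.89 with normexp correction to 4.39, and no gene crosses 0.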

How the data were processed

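The deposited intensity values (raw, background and processed) and a log10 ratio, which was not used, came from Agilent Feature Extraction 9.1.3.1, per the file headers. The deposited value table holds log2 ratios equal to log2 of processed Cy5 over Cy3 within 5.00e-06, uncentred (medians -0.13 and -0.13). DNA was amplified linearly before labelling, per the labels.

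Of 45219 spots, 3444 were controls. Log2 ratios of the other 41775 probes (45 to 60 bases) were centred on each array's median, and 41454 were kept after removal of non-uniform spots and of Cy3 not well above background. Saturated spots stayed. Coding probes, gene means and other DEAD-box genes were tested against 0 with limma 3.58.1 in R 4.3.3 (Benjamini-Hochberg, 0.05), with 1 residual degree of freedom per probe. The probe test was tried on simulated ratios, and the gene means, without a test, on real ratios shifted by a known amount. Of 5654 gene names, 5626 matched an R64 table used for names and strand.

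The members and lists were chosen with earlier results of these data known. All members were named, with the 2 highest and 2 lowest other DEAD-box genes upstream, the 3 nearest genes to HCA4, DBP2 and DBP10, and divergent neighbours. A planned motif search was not run, as no sequence was used here. Alternatives were 7 from the plan (normexp with offset 50, loess, no centring, no dim or saturated probes, upstream probes within 500 bp, either array left out) and 1 chosen after seeing the data (non-uniform spots kept). The number of arrays limits the precision.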

Additional observations from a re-analysis of the deposited data

How the results depend on the processing

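Signs of several small coding values depended on the processing. Without centring, DBP1 was -0.046 and DBP10 -0.051; after loess DBP10 was -0.083 and DBP8 0.074, with a DBP8 difference of -0.16; after normexp correction DBP2 was 0.15. The median coding level of the DBP genes, -0.014, was 0.17 after normexp, -0.033 after loess and -0.14 without centring, and -0.022 to -0.017 without either replicate. Their median upstream level, 1.55, was 1.31, 1.23 and 1.42 under the same settings, and their median difference, 1.47, was 1.12 after normexp, 1.21 after loess and 1.41 without dim or saturated probes. For the other DEAD-box genes the median upstream level was 1.04 after normexp, 1.17 after loess, 1.28 without centring, 0.89 without dim or saturated probes and 1.68 within 500 bp. Their median coding level was -0.32, -0.082 and -0.30 after normexp, after loess and without centring, and 3 and 2 of them, in place of 5, were above 0 after normexp and without centring. Leaving out centring shifts every value by -0.13; the cause of the other changes was not tested. Leaving out an array leaves no residual degrees of freedom, so it gave values without tests. No paired analysis was possible because both arrays belong to 1 group.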
